A study of Arabidopsis thaliana with 6 samples.

Results

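The 26S proteasome is the protease that degrades ubiquitin-tagged proteins in the cytosol and nucleus. The transcripts of its subunits were followed in Arabidopsis thaliana seedlings exposed to heat in darkness. Members were the 41 loci that encode the RPT ATPases, the RPN subunits and the first-named genes of the 20S alpha and beta subunits, each read by its brightest probe set that the authors' table assigns to that locus alone. Each probe set pools the signal of several short oligonucleotides that match the same transcript on an Affymetrix array. Of the 41 loci, 35 had such a probe set among the 22746 tested. A further 5 loci were read only by 4 probe sets that also match another locus, and RPN9b had no probe set.

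Seedlings were of the cultivar Col-0, a standard laboratory strain. The heat group comprised 3 arrays of seedlings held at 37 °C for 30 min in darkness, and the control group 3 arrays of seedlings kept in darkness without heat. The labels name no transgene or mutation, and both groups had been grown at 23 °C under 16 h of light and 8 h of darkness after 72 h at 4 °C. The series design gives an age of 10 days, but the sample labels give 19, 20 and 21 days for heat replicates 1 to 3 and 16, 17 and 18 days for control replicates 1 to 3. The labelled age was thus higher in every heat array, and age and heat cannot be fully told apart. The study's stated aim was the transcript response to heat and its interplay with light, and the groups treated in the light were not analysed here.

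The proteasome consists of a barrel, the 20S core particle, and a cap, the 19S regulatory particle. The core stacks rings of alpha subunits, which control entry, around rings of beta subunits, of which PBA, PBB and PBE carry the proteolytic sites. The cap has a base, in which RPT ATPases unfold substrates and RPN subunits receive them, and a lid, in which RPN11 removes the ubiquitin chain. Heat unfolds proteins, and damaged proteins that chaperones do not refold are a main substrate class of this machine.

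Array quality and labels were examined first. Heat arrays correlated with each other at a Pearson r of 0.989 to 0.991, control arrays at 0.976 to 0.988, and arrays of different groups at 0.941 to 0.954. Within the controls, the array that stood farthest from the rest was replicate 2. The 4 heat-responsive genes used to check the labels (HSP101, HSP17.6A, HSFA2 and HSP90.1) were all higher in the heat group, by 7.21 to 9.08 on the log2 scale. The summed linear level of 6 photosynthetic shoot markers was 7622 to 8605 in the heat group and 7903 to 9114 in the control group. The highest of these sums, 9114, was in control replicate 2. Of the 6 markers, 0 rose and 0 fell in limma, against 2.34% and 4% of all probe sets, and 3 had positive differences. Shoot markers read only by shared probe sets were left out of the sum. Among them, LHCB2.2 differed by 0.93 (SE 0.30, limma adjusted p = 0.124), with all heat arrays above all control arrays. RBCS1A differed by -0.14 (SE 0.12). The summed level of 8 root markers was 79.6 to 166 in the heat group and 108 to 280 in the control group, with the lowest control value in replicate 2. Of the 8 root markers, 1 fell (SCR, a root patterning factor, -1.09, SE 0.18, limma adjusted p = 0.013) and 0 rose, against 4% and 2.34% of all probe sets. Neither list contained a marker listed at 0, which says little about detection on a log2 array scale. The root markers ADF8, NRT2.1 and COBL9 lay below the median of all probe sets, at level percentiles of 37.2, 45.4 and 45.7.

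After heat, 1 of the 35 subunit transcripts rose and 0 fell at an adjusted p under 0.05 (limma, Benjamini-Hochberg over all 22746 probe sets). The transcript that rose was RPN6, a lid subunit. Over all probe sets, 2.34% rose and 4% fell, so the share of members that rose (2.86%) was close to the background. In either direction 6.34% of all probe sets were called, 533 higher and 909 lower, a split that was 713 and 688 after cyclic loess, 671 and 679 with median-centred arrays and 677 and 871 after quantile normalization. Of the 11373 probe sets brighter than the median, 4.15% rose and 7.05% fell. Before adjustment, p was under 0.05 for 2 members that were higher and 6 that were lower, against 6.48% and 14.9% of all probe sets. The 35 differences had a median of -0.15 on the log2 scale, against -0.01 over all probe sets and -0.15 over the 11373 probe sets brighter than the median. The members' median depended on the scaling and was -0.0020 after cyclic loess, -0.04 with median-centred arrays and -0.13 after quantile normalization, while the 1 rise and 0 falls stood under each of these scalings. The brighter set is the closer comparison, since the members' own levels had a median at the 91.7th percentile and a minimum at the 64.7th.

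RPN6 (AT1G29150, also named ATS9) encodes a scaffold protein of the lid. In yeast and human proteasomes this subunit braces the lid against the core particle. Its log2 values were 8.53, 8.69 and 8.67 in heat replicates 1, 2 and 3, against 7.56, 7.34 and 7.35 in control replicates 1, 2 and 3. All heat arrays lay above all control arrays, and the gap between the groups was wider than the spread within either. The difference was 1.21 (SE 0.12, 95% interval 0.94 to 1.48, limma adjusted p = 0.000832), a 2.32-fold higher level in the heat group. In the authors' deposited table, the heat over control ratios of the 3 like-numbered array pairs were 1.96, 2.55 and 2.50. Counted from the most positive difference down, RPN6 ranked 347th of the 22746 probe sets. The difference stayed between 1.18 and 1.29 when single arrays were left out, with adjusted p up to 0.00904. With labelled age as a covariate the difference was 1.27 but the call ended (limma adjusted p = 0.224). Labelled age and heat run together in these arrays, so that fit estimates the heat difference less precisely and cannot separate them.

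**Figure D1:**
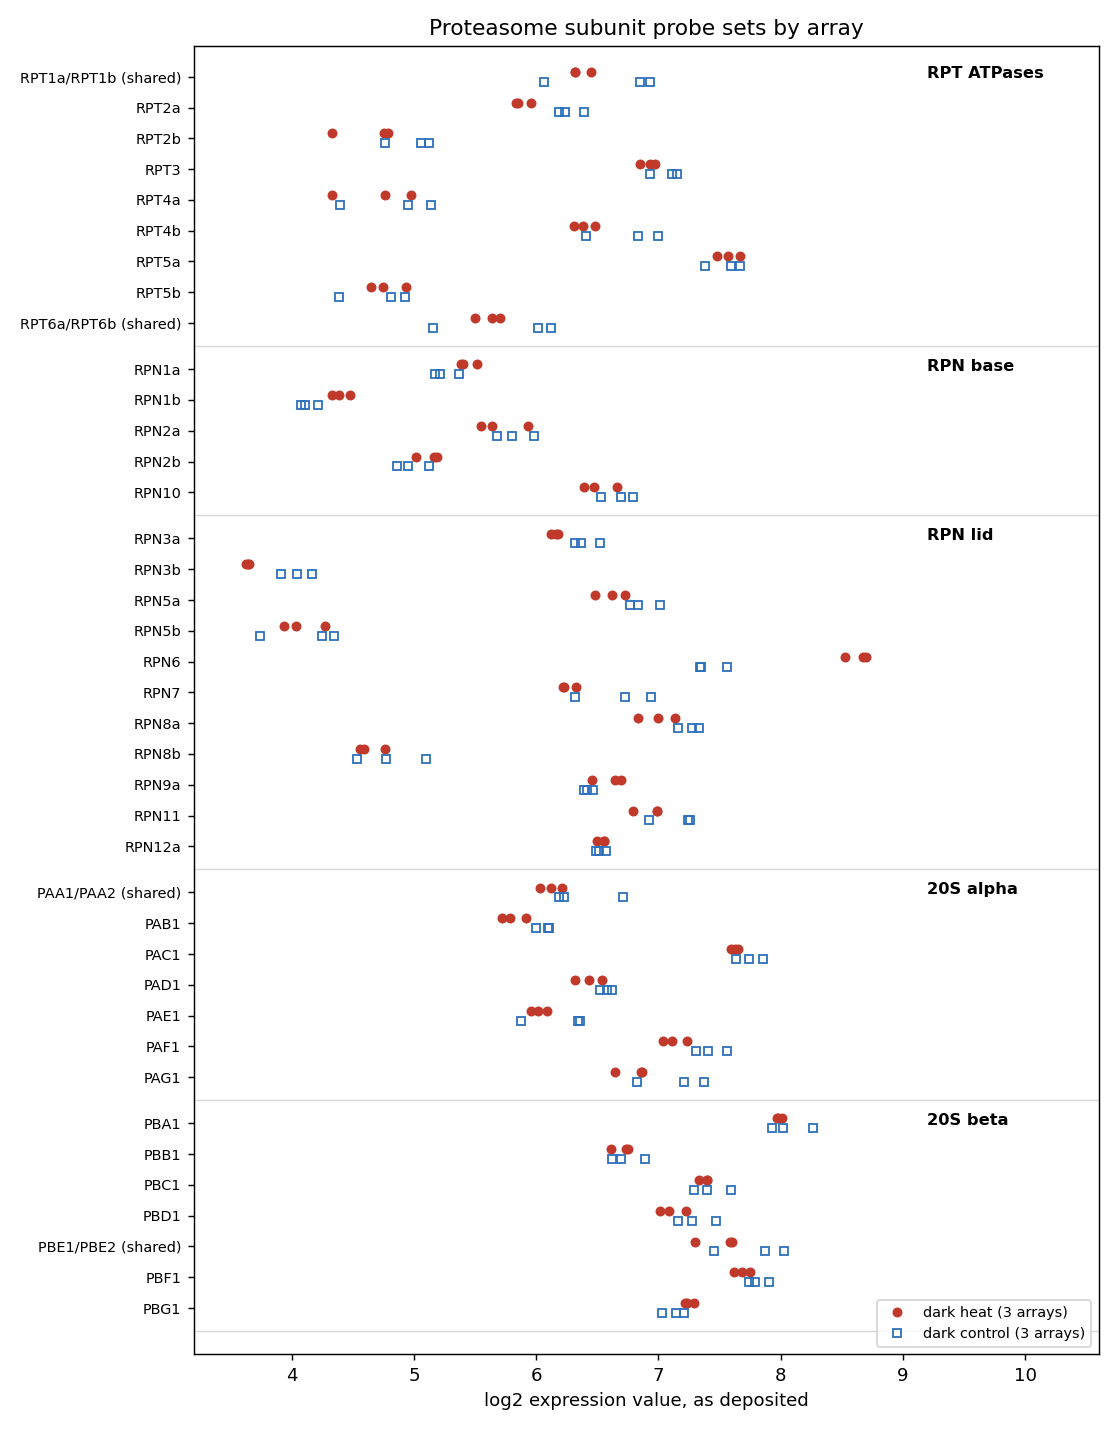
Log2 values of the proteasome probe sets (horizontal axis, as deposited) for each of 3 heat arrays (filled red circles) and 3 control arrays (open blue squares), grouped by subcomplex. Only RPN6 shows a wide gap, with heat values of 8.53 to 8.69 and control values of 7.34 to 7.56, and positions of different probe sets along the axis are not comparable levels.

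RPN6 was then set against the other subunits within each array, a comparison chosen after its value was seen. RPN6 minus the mean of the other 34 members was 2.34 to 2.56 in the heat arrays and 0.99 to 1.16 in the control arrays, a shift of 1.35 log2 units. Against the other 10 lid subunits the shift was 1.39. These values are a description, since RPN6 was picked as the one member that passed.

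The other 34 transcripts differed by -0.40 to 0.26. Their 95% intervals, which are not adjusted for the number of genes, all lay within 1 log2 unit of 0, and 27 lay within a 1.5-fold change in either direction. The highest upper bound was 0.51 (RPN1b), a 1.42-fold higher level, and the lowest lower bound was -0.79 (RPN7), a ratio of 0.579. Next to RPN6 in the order of adjusted p stood RPN3b (0.0792) and RPT2a (0.0864), both lower after heat.

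**Figure D2:**
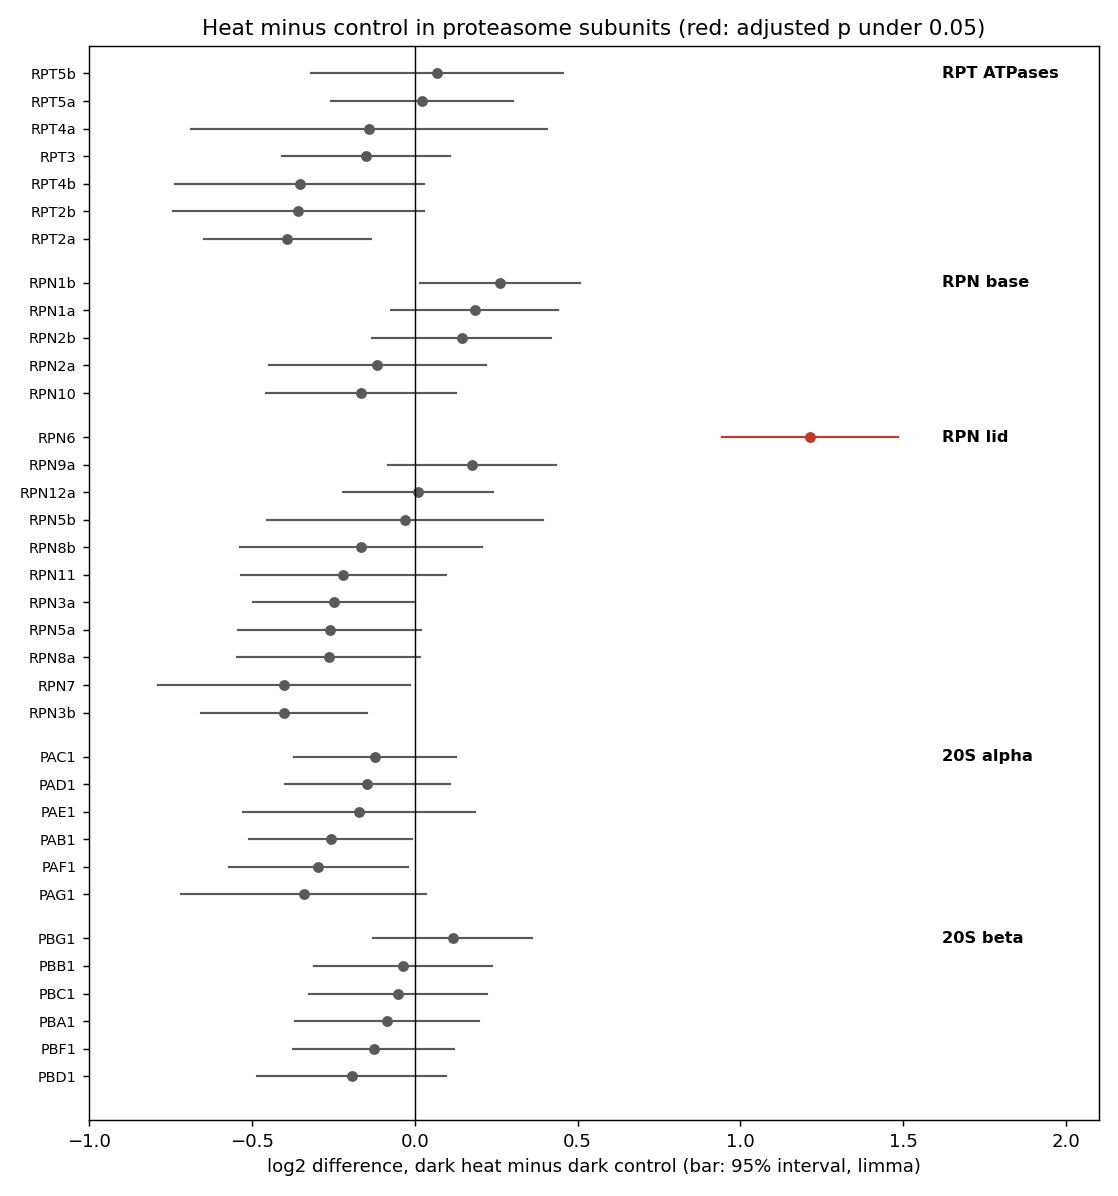
Log2 difference, dark heat minus dark control (horizontal axis), with its 95% interval from limma for each of 35 subunits, ordered by size within each subcomplex. RPN6 at 1.21 is the only subunit past the threshold, and the other 34 lie between -0.40 and 0.26.

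Among the ATPases, 0 of 7 singly read members rose or fell, against 2.34% and 4% of all probe sets. Of the 7, 5 had negative differences (median -0.15). The median was -0.02 after cyclic loess, -0.04 with median-centred arrays, 0.04 with labelled age and -0.36 without control replicate 2. At an unadjusted p under 0.05, 0 were higher and 1 was lower, against 6.48% and 14.9% of all probe sets. The lower member was RPT2a (AT4G29040), one of a pair of genes for the same ring position. It read 5.83, 5.96 and 5.85 in the heat arrays and 6.23, 6.19 and 6.39 in the control arrays (difference -0.39, SE 0.11, limma adjusted p = 0.0864). Its groups did not overlap. Its partner RPT2b read 4.79, 4.76 and 4.33 after heat against 5.12, 4.77 and 5.06 in controls (-0.36, SE 0.17, adjusted p = 0.265), and there the groups overlapped. RPT4b read 6.31, 6.48 and 6.38 after heat against 6.99, 6.41 and 6.83 in controls (-0.35, SE 0.16, adjusted p = 0.268). Control replicate 2 was the control that reached into the heat range for both RPT2b and RPT4b. RPT3 differed by -0.15 (SE 0.11) and RPT4a by -0.14 (SE 0.23). RPT5a, with a difference of 0.02 (SE 0.12), and RPT5b, with 0.07 (SE 0.17), were the ATPases with positive values, and their sign turned without control replicate 2 (-0.06 for RPT5a and -0.09 for RPT5b).

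The base subunits RPN1, RPN2 and RPN10 receive ubiquitinated substrates and the shuttle proteins that carry them. None of these 5 passed at the adjusted threshold in limma, against 6.34% of all probe sets. At an unadjusted p under 0.05, 1 was higher and 0 were lower, against 6.48% and 14.9% of all probe sets. Of the 5 differences, 3 were positive (median 0.14). The median was 0.28 after quantile normalization, 0.29 after cyclic loess, 0.25 with median-centred arrays, 0.31 with labelled age and 0.08 without control replicate 1. RPN1b (AT4G28470), a docking platform of the base, read 4.33, 4.48 and 4.39 in the heat arrays and 4.21, 4.11 and 4.08 in the control arrays (0.26, SE 0.11, adjusted p = 0.205). Its paralog RPN1a read 5.52, 5.41 and 5.38 against 5.37, 5.21 and 5.17 (0.18, SE 0.11, adjusted p = 0.387). In both RPN1 genes every heat array exceeded every control array, by small margins. Such a separation held for 2 of the 5 base members, against 10.4% of all probe sets and 8.86% of those brighter than the median. RPN2a, a scaffold protein, differed by -0.12 (SE 0.14) and its paralog RPN2b by 0.14 (SE 0.12). RPN10, a ubiquitin receptor, read 6.39, 6.66 and 6.47 after heat and 6.53, 6.80 and 6.70 in controls (-0.16, SE 0.13, adjusted p = 0.498).

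Of 11 singly read lid subunits RPN6 alone rose and 0 fell, against 2.34% and 4% of all probe sets. Of the 11 differences, 8 were negative (median -0.22). The median was -0.09 after cyclic loess, -0.11 with median-centred arrays and -0.05 with labelled age. RPN3b (AT1G75990), a scaffold protein of the lid, read 3.64, 3.63 and 3.65 in the heat arrays against 4.04, 4.17 and 3.92 in the control arrays, with no overlap (-0.40, SE 0.11, limma adjusted p = 0.0792). RPN3a read 6.16, 6.18 and 6.12 against 6.52, 6.32 and 6.36, again without overlap (-0.25, SE 0.11, adjusted p = 0.233). RPN7 (AT4G24820), a structural lid protein, read 6.23, 6.33 and 6.22 against 6.94, 6.32 and 6.72 (-0.40, SE 0.17, adjusted p = 0.219). The heat arrays of RPN7 agreed closely while its control arrays spread widely, with replicate 2 at the heat level. RPN5a and RPN8a also had all heat arrays below all control arrays, with differences of -0.26 (SE 0.12) and -0.26 (SE 0.12). Such a separation held for 4 of the 11 lid members, against 15.8% of all probe sets and 23.7% of those brighter than the median. RPN11 (AT5G23540), the deubiquitinase of the lid, read 6.99, 6.99 and 6.79 against 7.26, 6.92 and 7.25 (-0.22, SE 0.13, adjusted p = 0.4). RPN8b differed by -0.16 (SE 0.16) and RPN5b by -0.03 (SE 0.18). RPN9a, whose paralog was not measured, differed by 0.18 (SE 0.11), and RPN12a, a subunit linked to cytokinin responses, by 0.01 (SE 0.10).

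In the core particle 0 of 12 singly read members passed in limma, against 6.34% of all probe sets. At an unadjusted p under 0.05, 0 were higher and 2 lower, against 6.48% and 14.9% of all probe sets. Of the 12 differences, 11 were negative (median -0.14). That count was 11 after quantile normalization, 8 with median-centred arrays and 6 after cyclic loess. All 6 alpha subunits had negative differences, with a median of -0.22 and a range of -0.34 to -0.12, although PAC1 turned to 0.015 after cyclic loess. The median was -0.09 after cyclic loess and -0.10 with median-centred arrays. PAF1 (AT5G42790) read 7.04, 7.24 and 7.11 after heat against 7.41, 7.31 and 7.56 in controls (-0.30, SE 0.12, adjusted p = 0.202). PAB1 read 5.78, 5.92 and 5.72 against 6.104, 5.999 and 6.095 (-0.26, SE 0.11, adjusted p = 0.221). These alone among the alpha subunits, 2 of 6, had groups that did not overlap. All heat arrays lay below all control arrays for 15.8% of all probe sets and 23.7% of those brighter than the median. PAG1 read 6.86, 6.87 and 6.65 against 7.21, 6.82 and 7.37 (-0.34, SE 0.16, adjusted p = 0.275), with control replicate 2 inside the heat range. PAE1 differed by -0.17 (SE 0.15), PAD1 by -0.15 (SE 0.11) and PAC1 by -0.12 (SE 0.11).

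The beta subunits had differences nearer to 0, with a median of -0.07 and 5 of 6 negative, but the median was positive after cyclic loess (0.07), with median-centred arrays (0.04), with labelled age (0.06) and without control replicate 1 (0.02). PBA1 (AT4G31300), which carries the caspase-like site, read 7.98, 8.01 and 7.97 in the heat arrays and 8.27, 7.93 and 8.02 in the control arrays (-0.09, SE 0.12, limma adjusted p = 0.722). PBB1, which carries the trypsin-like site, read 6.61, 6.75 and 6.73 against 6.89, 6.62 and 6.70 (-0.04, SE 0.12, adjusted p = 0.881). For both catalytic subunits the heat values lay inside or at the edge of the control range. Of the structural subunits, PBD1 differed by -0.19 (SE 0.12), PBF1 by -0.13 (SE 0.11) and PBC1 by -0.05 (SE 0.12). PBG1 (AT1G56450) was the beta subunit with a positive difference and read 7.23, 7.29 and 7.22 against 7.21, 7.14 and 7.03 (0.12, SE 0.10, adjusted p = 0.568), with the groups just apart.

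The 4 shared probe sets cannot separate the loci they match and were counted apart. The probe set of RPT1a and RPT1b differed by -0.25 (SE 0.23), that of RPT6a and RPT6b by -0.15 (SE 0.25), that of PAA1 and PAA2 by -0.26 (SE 0.16) and that of PBE1 and PBE2, whose products carry the chymotrypsin-like site, by -0.29 (SE 0.17). None passed in limma (adjusted p from 0.386 to 0.76), against 6.34% of all probe sets. None had an unadjusted p under 0.05, against 6.48% (higher) and 14.9% (lower) of all probe sets. All 4 had overlapping groups. The RPT6 probe set showed the largest spread among controls, with 6.12, 5.16 and 6.02 in replicates 1, 2 and 3, against 5.64, 5.70 and 5.50 in the heat arrays.

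Members were also counted by whether their arrays separated by group. All heat arrays lay below all control arrays for 7 of 35 members (20%), against 15.8% of all probe sets and 23.7% of the brighter ones. All heat arrays lay above for 4 of 35 (11.4%), against 10.4% of all probe sets and 8.86% of the brighter ones. Negative differences made up 26 of 35 (74.3%), against 51.7% of all probe sets and 67% of the brighter ones. After cyclic loess 18 of 35 (51.4%) were negative, against 49.9% of all probe sets and 50.3% of the brighter ones, and with median-centred arrays 22 of 35 (62.9%), against 37.1% and 54.3%.

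**Figure D3:**
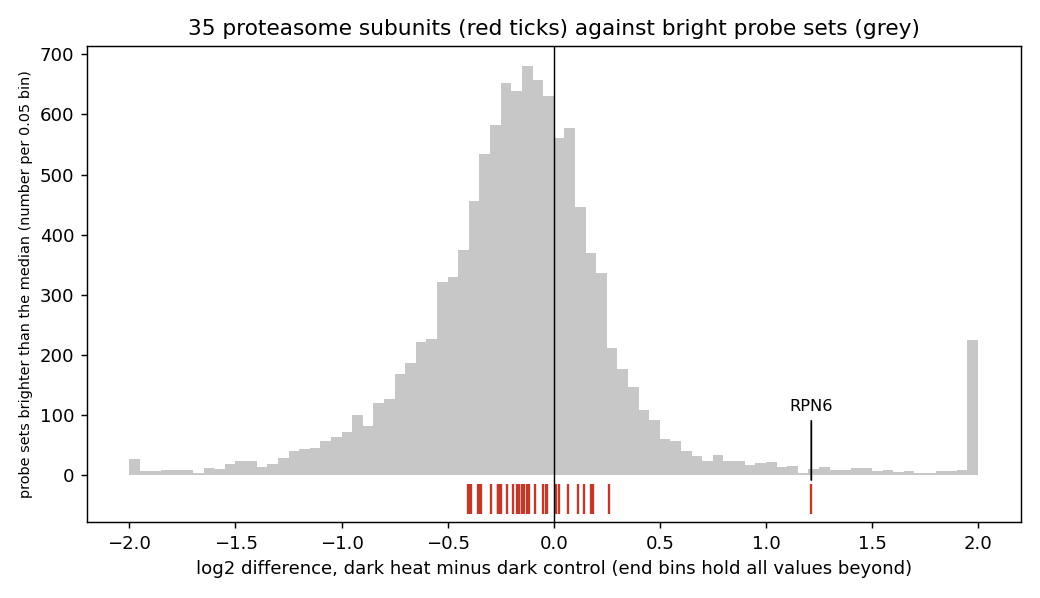
Histogram of log2 differences, dark heat minus dark control, over the 11373 probe sets brighter than the median (grey, number per bin), with the 35 proteasome subunits as red ticks beneath. The subunits other than RPN6 fall within the central part of the distribution, whose median is -0.15, and RPN6 stands at 1.21.

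The members' mean level was also followed from array to array. Averaged over the 35 members, the deviation from the control mean was -0.10, -0.02 and -0.17 in heat replicates 1, 2 and 3, against 0.08, -0.12 and 0.04 in control replicates 1, 2 and 3. By this mean, which includes RPN6, control replicate 2 lay below 2 of the heat arrays. The order differed by the median deviation, which was -0.14, -0.06 and -0.22 in heat replicates 1, 2 and 3. In control replicates 1, 2 and 3 that median was 0.10, -0.12 and 0.02. The mean over the brighter probe sets also put control replicate 2 below 2 of the heat arrays. It was -0.07, -0.09 and -0.13 in heat replicates 1, 2 and 3, against 0.03, -0.13 and 0.10 in control replicates 1, 2 and 3. Control replicate 2 was the lowest control for 25 of 35 members (71.4%), against 41.3% of all probe sets and 57.8% of the brighter ones. By subcomplex that count ran from 7 of 7 ATPases to 1 of 5 base subunits. The same array had the lowest summed root marker level and the highest summed shoot marker level of the controls. The part of tissue composition in the members' values was not tested. In seedlings, fewer cells of a type and less RNA per cell cannot be told apart.

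By subcomplex, the mean deviations of the alpha subunits were -0.24, -0.14 and -0.29 in the heat arrays and 0.04, -0.13 and 0.08 in the control arrays, so the groups stood just apart. For the ATPases they were -0.17, -0.06 and -0.33 in the heat arrays and 0.13, -0.24 and 0.11 in the control arrays, with overlap. The base subunits averaged above the control mean in 2 of the 3 heat arrays, at 0.10, 0.10 and -0.01, against 0.02, 0.01 and -0.03 in the control arrays. These values are a description, and differences between subcomplexes were not tested. The median SD of a member was 0.09 among heat arrays and 0.13 among control arrays (n = 3 each). The smaller SD was in the heat group for 27 of 35 members, and this count was not made over all probe sets. Heat arrays also correlated more closely over all probe sets (r of 0.989 to 0.991, against 0.976 to 0.988 among controls). Whether the smaller spread is particular to the members was not tested.

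**Figure D4:**
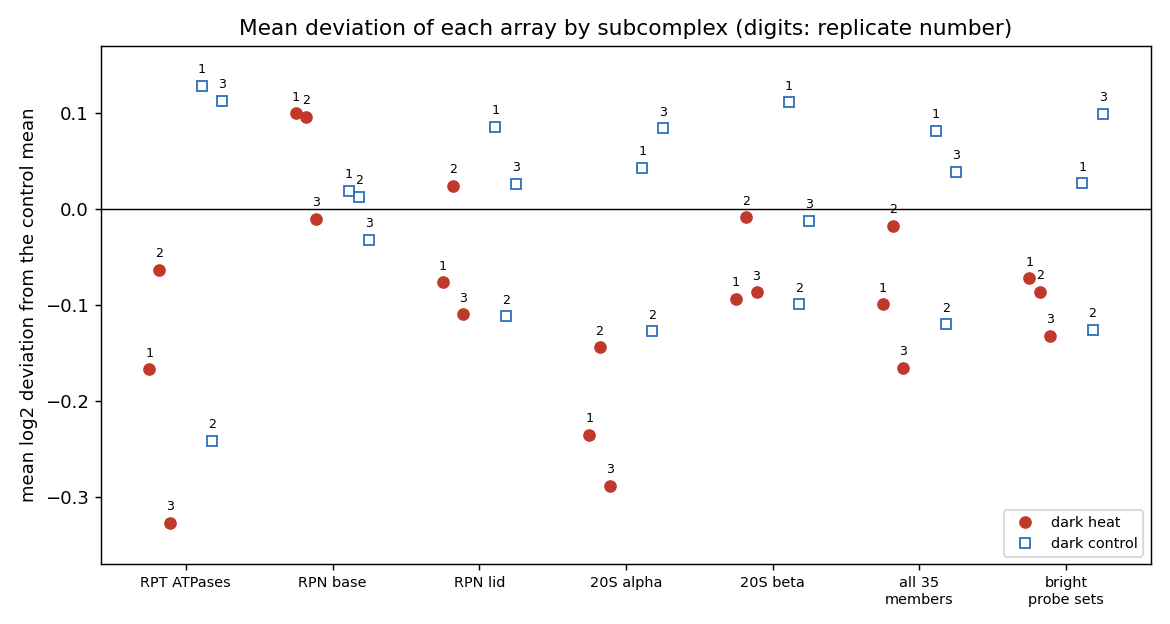
Mean log2 deviation from the control mean (vertical axis) for each subcomplex, for all 35 members and for the probe sets brighter than the median, with 1 point per array (filled red, dark heat; open blue, dark control; digits give the replicate). Control replicate 2 lies at -0.24 for the ATPases and -0.12 over all members, below the other controls.

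Leaving out control replicate 2 changed the count of falls. Without it 4 members fell (RPT2a, RPT4b, RPN7 and PAG1, with differences of -0.43, -0.52, -0.57 and -0.50 and limma adjusted p from 0.0208 to 0.0479), and RPN6 still rose (1.18). The fall in 4 of 35 members (11.4%) has to be read against all probe sets, of which 12% fell in the same fit. With arrays weighted by their fit, 4 members also fell, against 10.3% of all probe sets. The share among the brighter probe sets, the closer comparison, was not counted in either fit. The shared probe sets of RPT1 (-0.53) and RPT6 (-0.46) also fell without control replicate 2.

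Several positions in the cap are encoded by a pair of genes, and 8 pairs had both genes read singly. The question was whether the genes of a pair differed in their response. The heat minus control difference of the a gene minus that of the b gene ranged from -0.26 (RPN2) to 0.21 (RPT4), and the groups overlapped in all 8. Exact two-sided permutation tests gave p from 0.2 to 0.9 (0.64 to 0.9 after Benjamini-Hochberg adjustment over the 8 pairs). The smallest p this exact test can give with 3 against 3 arrays is 0.1, and the pairs were tested in no other way. For RPN2 the genes differed in sign, with RPN2a at -0.12 and RPN2b at 0.14, and the exact p was 0.2. For RPT2 the differences were nearly equal, with RPT2a at -0.39 and RPT2b at -0.36 (exact p = 0.9).

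Subunit genes outside the member list gave no call. Of 10 further subunit genes read singly, 0 rose and 0 fell in limma, against 2.34% and 4% of all probe sets. None had an unadjusted p under 0.05, which held for 6.48% (higher) and 14.9% (lower) of all probe sets. The median difference was -0.03 with a range of -0.27 to 0.22. With so few genes, a count of 0 is close to the background. They included RPN13, a ubiquitin receptor, at 0.07 (SE 0.13), and the second core genes PAB2 at -0.03 (SE 0.13), PAE2 at -0.10 (SE 0.11) and PBC2 at 0.22 (SE 0.18). The probe set of PAC2, shared with AT4G15160 and so counted apart, differed by -0.40 (SE 0.11, limma adjusted p = 0.0747, unadjusted p = 0.00633). All its heat arrays lay below all its control arrays, at a level percentile of 45.4.

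Among 6 regulators and assembly factors of the proteasome, 1 rose and 0 fell (median -0.02), against 2.34% and 4% of all probe sets. NAC78 (AT5G04410), a transcription factor that in Arabidopsis activates proteasome genes when the protease is overloaded, read 7.81, 7.95 and 7.90 in heat replicates 1, 2 and 3, against 6.24, 6.10 and 6.43 in control replicates 1, 2 and 3. All heat arrays were well above all controls, and the difference was 1.63 (SE 0.12, limma adjusted p = 0.000225), a 3.09-fold higher level. Its close relative NAC53, which acts on the same genes, read 5.58, 6.12 and 5.62 after heat and 6.28, 5.19 and 6.33 in controls (-0.16, SE 0.31, adjusted p = 0.801). The NAC53 controls spread over more than 1 log2 unit, with replicate 2 lowest, so its interval ran from -0.89 to 0.57. PA200, an alternative cap of the core, read 3.94, 3.66 and 3.87 against 4.19, 3.79 and 4.00 (-0.17, SE 0.14, adjusted p = 0.548). The assembly chaperone UMP1A differed by -0.03 (SE 0.11).

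Shuttle proteins bring ubiquitinated substrates to the proteasome, and CDC48 is an ATPase that extracts them from complexes and membranes. Of 11 such genes 1 rose and 0 fell (median 0.21), against 2.34% and 4% of all probe sets. CDC48B (AT3G53230) read 6.68, 7.09 and 6.64 in the heat arrays against 4.45, 3.50 and 4.22 in the control arrays (2.75, SE 0.25, limma adjusted p = 0.000667), a 6.72-fold higher level. CDC48A, the main form, read 8.21, 8.21 and 8.09 against 7.91, 7.73 and 7.96 (0.31, SE 0.11, adjusted p = 0.168), again without overlap, and it passed after cyclic loess (0.44, adjusted p = 0.0424). The shuttle RAD23C read 5.58, 5.30 and 5.47 against 4.82, 5.14 and 4.97 (0.48, SE 0.13, adjusted p = 0.0841), and it passed without control replicate 2 (0.56, adjusted p = 0.0294). UFD1, a CDC48 adaptor, differed by -0.31 (SE 0.14).

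Of 9 singly read genes for ubiquitin, its activating enzymes, deubiquitinases and the chaperone-linked ligase CHIP, 0 passed (limma), against 6.34% of all probe sets. None had an unadjusted p under 0.05, against 6.48% (higher) and 14.9% (lower) of all probe sets, and the median difference was 0.02. UBA1, an activating enzyme, differed by 0.24 (SE 0.13), and UBP6, a deubiquitinase that docks on the proteasome, by 0.05 (SE 0.12). The brightest probe set of the polyubiquitin gene UBQ10, shared with UBQ11 and UBQ14, read 9.93, 9.75 and 9.79 after heat and 9.51, 9.71 and 9.37 in controls (0.29, SE 0.13, adjusted p = 0.233). Other shared ubiquitin probe sets went the other way, that of UBQ1 and UBQ2 by -0.36 (SE 0.11, limma adjusted p = 0.117) and that of UBQ5 and UBQ6 by -0.31 (SE 0.11, adjusted p = 0.146). In both, all heat arrays lay below all control arrays. The unadjusted limma p was 0.0139 and 0.0206, against 0.0497 for the UBQ10 probe set. The probe set of UBQ4, shared with UBQ3, differed by 0.27 (SE 0.21).

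The COP9 signalosome, which removes the ubiquitin-like protein RUB from cullin ligases, resembles the lid in its subunits. Of its 10 genes 1 rose and 0 fell (median -0.22), against 2.34% and 4% of all probe sets. CSN3 also passed after quantile normalization (0.43, limma adjusted p = 0.0462) and after cyclic loess (0.45, adjusted p = 0.0463), but not on the deposited scale (0.30, adjusted p = 0.239). CSN7 (AT1G02090) read 5.98, 6.57 and 6.10 in the heat arrays and 4.43, 4.52 and 4.77 in the control arrays (1.64, SE 0.18, limma adjusted p = 0.00173), a 3.12-fold higher level with no overlap. The other 9 differed by -0.38 to 0.50, of which CSN5B had the highest value (0.50, SE 0.17, adjusted p = 0.147) and CSN4 the lowest (-0.38, SE 0.27). Set against the mean of the rest of their own lists within each array, a comparison chosen after the values were seen and given as a description, CSN7 shifted by 1.74, CDC48B by 2.64 and NAC78 by 1.65. The calls of NAC78, CDC48B and CSN7 ended with labelled age as a covariate (1.42, 2.95 and 1.29, with limma adjusted p of 0.15, 0.155 and 0.512). As for RPN6, that fit is less precise and cannot separate age from heat.

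**Figure D5:**
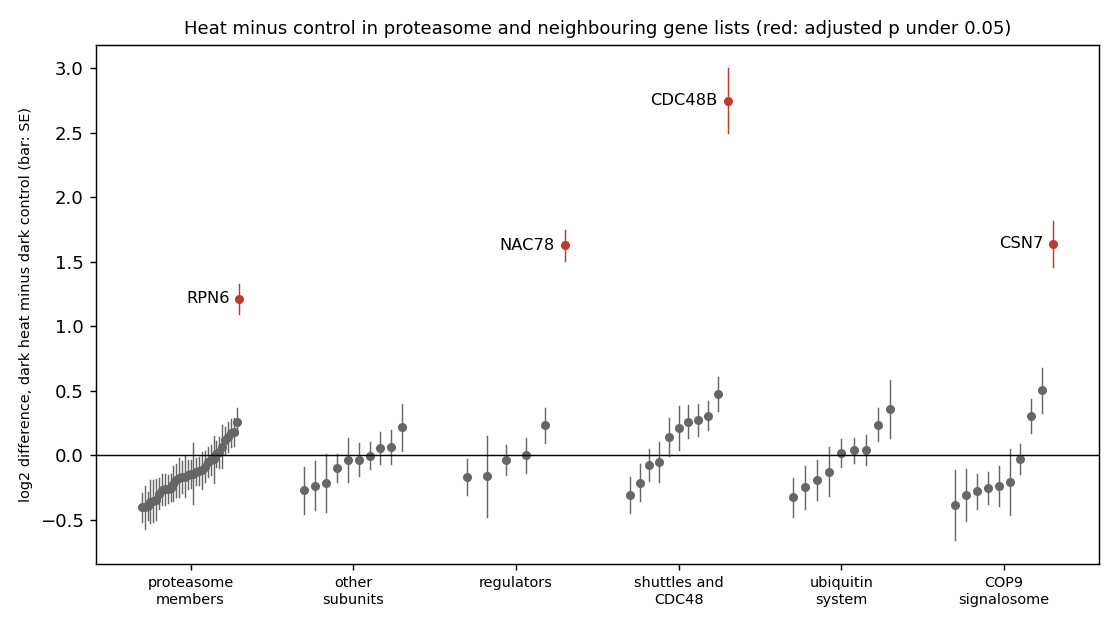
Log2 difference, dark heat minus dark control (vertical axis, bars are limma SE), for the 35 proteasome members and 5 neighbouring gene lists, ordered by size within each list. The genes past the threshold (red) are RPN6 at 1.21, NAC78 at 1.63, CDC48B at 2.75 and CSN7 at 1.64, 1 in each of 4 lists, while the other subunits and the ubiquitin system have none.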

How the data were processed

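Labelled cRNA from total RNA was hybridised to Affymetrix arrays, and the deposited values are log2 expression values, which the submitters' processing notes link to RMA. The sources used here name neither the software nor its background step. A second deposited table held the same log2 values (largest gap 0) and the authors' linear ratio of each heat array over the like-numbered control array. The array medians of the log2 values were 2.78 to 2.95. Arrays carry no depth, and their number limits the precision.

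Leaving out 64 control probe sets gave 22746 for testing. Of these, 20653 matched 1 gene (20482 with a locus in the TAIR10.1 gene table), 959 several and 1134 none. Heat minus control was tested by limma (version 3.58.1, R 4.3.3) with moderated variances (group only, two-sided, Benjamini-Hochberg over all probe sets, threshold 0.05), and all single-gene adjusted p-values come from it. Replicates are not stated to be separate cultures, so p-values measure the spread between these samples only.

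The members and lists were chosen with earlier results of these data known. Named genes were members past the threshold, the extremes of each subcomplex, paralog pairs, and in other lists up to 3 rises and falls that passed, with NAC53, NAC78, PA200, CDC48A and UBQ10. Other genes named were chosen after their values were seen. Alternatives covered normalization, a filter on dim probe sets, moderation, array weights, replicate number, labelled age and arrays left out. Planned protein and promoter sequence descriptions were not run, as no sequences were used here.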

Additional observations from a re-analysis of the deposited data

How the results depend on the processing

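RPN6, NAC78, CDC48B and CSN7 kept their direction in every alternative run, and their calls in all but the fit with labelled age. The causes of the changes below were not tested. The counts of probe sets that rose and fell (533 and 909) were 857 and 2342 with array weights, which gave control replicate 2 the lowest weight (0.366), 129 and 10 with labelled age as a covariate, 371 to 1008 and 275 to 2719 with single arrays left out (the highest counts without control replicate 2), and 410 for falls with a replicate block. Same-numbered heat and control arrays did not deviate alike (correlations of deviations -0.26, -0.24 and -0.24). For unlike-numbered arrays these correlations were -0.02 to 0.26. The replicate block left RPN6 called (limma adjusted p = 0.016). Members that fell numbered 4 with array weights (RPT2a, RPT4b, RPN3b and RPN7, against 10.3% of all probe sets) and 0 to 4 with arrays left out, and members that rose 0 with labelled age. Centring each array on its median moved the median of all probe sets from -0.01 to 0.0998. The member median of -0.15 was -0.0020 after cyclic loess, -0.0358 with centred arrays and -0.0289 with labelled age. Calls in the COP9 signalosome list numbered 2 after quantile normalization or cyclic loess, 1 to 2 with arrays left out and 0 with labelled age, in the CDC48 list 2 after cyclic loess or with array weights, 1 to 2 with arrays left out and 0 with labelled age, and in the regulator list 0 with labelled age. Differences that turned sign, none of them called, were found after quantile normalization (RPT4a 0.00397, RPT5a -0.0106, RPN5b 0.14), after cyclic loess (RPT4a 0.0209, RPN2a 0.0138, RPN5b 0.14, PAC1 0.015, PBA1 0.0514, PBB1 0.0938, PBC1 0.0842, PBF1 0.0109, PA200 0.0064), with median-centred arrays (RPN5b 0.0802, PBA1 0.0239, PBB1 0.0735, PBC1 0.0591), with array weights (RPT5a -0.0347, RPT5b -0.0479), with labelled age (RPT2b 0.0381, RPT4a 0.052, RPT6a 0.0303, RPN2a 0.31, RPN9a -0.0216, PBA1 0.10, PBB1 0.0163, PBC1 0.15, PBE1 0.0392, PBF1 0.0085, PA200 0.0307). With single arrays left out, the ranges that crossed 0 were -0.54 to 0.0356 for NAC53, -0.16 to 0.0111 for PBA1, -0.095 to 0.0406 for PBB1, -0.12 to 0.0333 for PBC1, -0.0061 to 0.0348 for RPN12a, -0.22 to 0.0879 for RPN5b, -0.36 to 0.0405 for RPT4a, -0.0581 to 0.0821 for RPT5a, -0.0941 to 0.18 for RPT5b, -0.46 to 0.0245 for RPT6a, -0.17 to 0.0739 for the RPT2 pair, -0.0957 to 0.036 for the RPT5 pair, -0.30 to 0.0715 for the RPN8 pair. The RPT5 pair difference was -0.23 after quantile normalization.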
